A study of Mus musculus with 25 samples.

Results

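The connexin genes encode the subunits of gap junctions. Gene symbols of this family were looked up among the transcript clusters of the array (groups of probes that each stand for 1 transcription unit), the brightest cluster stood for each gene, and 8 genes were described: Gjd2, Gja5, Gja4, Gjc1, Gja1, Gja3, Gjb2 and Gjb6. They are 8 of 18820 named genes and 8 of 28940 clusters tested. The rule itself goes by gene names. Gjd2 and Gja5 also stand in the study's own list of changed genes, which was drawn from the same arrays, so their direction here is no independent evidence. Outside the arrays, the paper counts Gjd2 among the lowered candidates that passed its quantitative PCR. It also reports that the in situ signal of this gene was lost in older mutant embryos.

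Total RNA was taken from the mammillary neuroepithelium, the wall of the caudal hypothalamus that later gives rise to the mammillary body, of C57BL/6 mouse embryos at E10.5. The arrays comprised 13 mutants, labelled Lhx5 KO, and 12 wild types, labelled WT, with 1 array per sample. The mutants were homozygous for a floxed Lhx5 allele (Lhx5 fl/fl) in which the loxP sites had not been recombined and every exon was still in place. It is a hypomorph rather than a deletion. LHX5 is a LIM homeodomain transcription factor of the caudal hypothalamus. Since the allele keeps its exons, the transcript is no check of the labels, and it lay between 7.43 and 8.60 in KO and between 7.67 and 8.38 in WT arrays (difference -0.04 ± 0.17, limma adjusted p = 0.96). All levels are log2 RMA values, in which a difference of 1 is a doubling, and all differences are KO minus WT.

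Connexins span the membrane, and a ring of them in one cell docks with a ring in the neighbouring cell to form a channel for ions and small metabolites. In the early neural tube such channels couple the dividing progenitors. Later each cell class uses its own members. Connexin 36, the product of Gjd2, forms the electrical synapses between neurons. Connexin 40 (Gja5) and connexin 37 (Gja4) join the endothelial cells of arteries, and connexin 45 (Gjc1) is used in the embryonic heart, in vessel walls and in some neurons. Connexin 43 (Gja1) is the broadly used member and is prominent in neural progenitors and astrocytes. Connexin 26 (Gjb2) and connexin 30 (Gjb6) serve epithelia, the cochlea and glia, and connexin 46 (Gja3) serves the lens.

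The promoters of the neuronal and the arterial genes are shown because these were the members with the largest differences. Each is the RefSeq window on GRCm38.p6 from 250 bases before to 50 bases after the transcript start, 300 bases in all, written 5′ to 3′ on the strand of the gene, and capitals mark the GC box GGGCGG. The Gjd2 window lies at chr2:114013570-114013869 on the minus strand, the Gja5 window at chr3:97032152-97032451 on the plus strand and the Gja4 window at chr4:127313990-127314289 on the minus strand.
Gjd2: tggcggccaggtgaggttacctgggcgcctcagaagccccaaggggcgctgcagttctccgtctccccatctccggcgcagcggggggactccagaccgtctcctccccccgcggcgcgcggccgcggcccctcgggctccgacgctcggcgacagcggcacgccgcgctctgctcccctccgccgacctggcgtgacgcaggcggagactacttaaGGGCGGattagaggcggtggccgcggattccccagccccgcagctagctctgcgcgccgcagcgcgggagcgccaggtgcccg
Gja5: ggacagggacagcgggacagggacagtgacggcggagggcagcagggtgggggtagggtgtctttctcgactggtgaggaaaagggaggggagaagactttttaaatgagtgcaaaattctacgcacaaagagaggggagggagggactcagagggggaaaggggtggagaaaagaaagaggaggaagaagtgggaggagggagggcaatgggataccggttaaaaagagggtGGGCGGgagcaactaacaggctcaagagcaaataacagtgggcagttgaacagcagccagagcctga
Gja4: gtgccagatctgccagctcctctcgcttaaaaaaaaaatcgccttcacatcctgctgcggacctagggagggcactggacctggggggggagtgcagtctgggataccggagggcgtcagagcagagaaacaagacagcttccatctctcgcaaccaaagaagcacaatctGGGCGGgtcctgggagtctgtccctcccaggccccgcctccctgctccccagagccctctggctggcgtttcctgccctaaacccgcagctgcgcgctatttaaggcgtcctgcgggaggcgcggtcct

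The window of Gjd2 was rich in G and C (75.0%) and held 41 CpG dinucleotides, that of Gja5 had 55.7% and 7, and that of Gja4 had 62.0% and 16, beside a median of 52.7% and 7 over all 32851 windows. Each of these 3 windows held the GC box once on the gene's strand, at position 218 in Gjd2, 234 in Gja5 and 172 in Gja4, counted from 1 at the 5′ end. The GC box occurred in 35.7% of all windows on either strand. The homeodomain core TAATTA (5.29% of windows), the RBPJ core TGGGAA (25.6%) and the TATA box TATAAA (13.6%) had no match in these 3, again on both strands. Windows were found for 7 of the 8 genes, and TAATTA matched in none of them. These are matches of letters only. Gja3, Gjb2 and Gjb6 are consecutive genes on chromosome 14.

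The mutant arrays form 2 sets. The mean of KO 1 to 10 equalled the mean of KO 11 to 13 on 35542 probe sets (median absolute difference 1.33e-06), so the mean of KO 1 to 10 adds no information on the difference from WT. Sex is not in the sample labels, and of KO 11 to 13 only 1 array was taken as male and 2 as female. In embryos of the same sex, Xist (females) and 3 Y-linked genes (males) lay 1.63 to 2.65 from WT in KO 1 to 10 and 0.113 to 0.684 in KO 11 to 13. A term for KO 1 to 10 was therefore part of the model, and the difference rests on KO 11 to 13 against WT, with the spread estimated over all 25 arrays. Without the term the standard errors shrink (the median ratio is 1.65) while the estimates hardly move. Array medians ranged from 4.64 to 4.76. Markers of the tissue were present: 11 of 11 measured mammillary and 10 of 10 progenitor genes lay above the median cluster (4.69), and so did 14 of 14 endothelial and 12 of 12 mesenchymal genes, so the samples held RNA of vessels and mesenchyme. The wild-type array WT 11 was the lowest of all arrays for the endothelial, arterial, mesenchymal and macrophage lists and the lowest WT array for neurons. Without it, Gjd2 differed by -1.07 ± 0.31, Gja5 by 0.76 ± 0.24 and Gja4 by 0.35 ± 0.17 (limma unadjusted p = 0.00211, 0.0038 and 0.0522), so that Gja4 no longer passed an unadjusted p of 0.05. In bulk tissue, fewer cells of a type and less RNA per cell cannot be told apart.

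Of the connexin genes, Gjd2 was lower in the mutant and Gja5 and Gja4 were higher, while the other 5 differed by at most 0.24. With the term for KO 1 to 10, 0 of 8 genes passed an adjusted p of 0.05 in limma, against 0.0242% of all clusters. At an unadjusted p of 0.05, 2 genes were higher (6.2% of all clusters) and 1 was lower (4.15%). With genotype as the only term, 3 of 8 passed the adjusted threshold, against 16.7% of all clusters. With KO 11 to 13 and WT fitted on their own, 0 passed (0.0207%), and Gja5 and Gjd2 had unadjusted p of 0.00162 and 0.0137 in limma. These same 2 genes differed by at least 1.5-fold, as did 0.553% of all clusters. On KO 11 to 13, 1 gene lay above every WT array (0.536% of all clusters) and 0 lay below (0.619%). In all, 4 of the genes stood higher and 4 lower, and their median difference was -0.01, against 0.01 over all clusters.

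**Figure D1:**
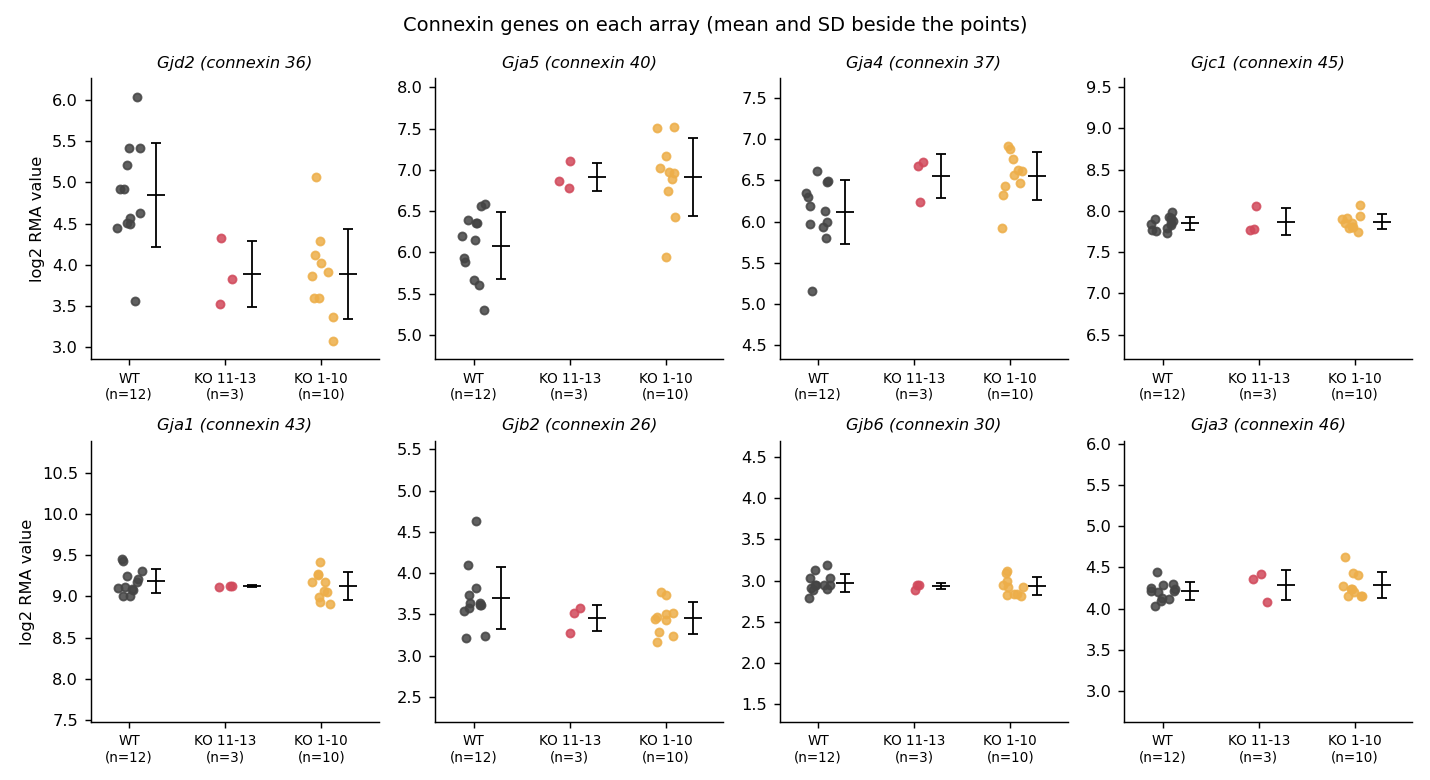
Log2 RMA values of the 8 connexin genes on each array, with the 12 WT arrays, KO 11 to 13 and KO 1 to 10 side by side and the mean and SD beside each set of points. The y axes all span the same range. Gja5 on KO 11 to 13 lies above every WT array, Gjd2 lies low, and Gjc1, Gja1, Gjb6 and Gja3 hardly spread.

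Gjd2, the neuronal member, had values of 3.56 (lowest), 4.77 (median) and 6.04 (highest) in WT, with a mean of 4.84 ± 0.63 (SD, n = 12). KO 11, 12 and 13 gave 4.32, 3.82 and 3.53. The mutants were at the low end, and 11 of 12 WT arrays lay above all 3 of them. The exception was WT 11, which was itself at 3.56, and without it the groups did not overlap. That array was singled out by its low values, and no share of clusters that separate without it is given. The level in the mutant was 1.94-fold lower (limma unadjusted p = 0.011, adjusted p = 0.309, 95% interval of the log2 difference -1.67 to -0.24). The exact permutation test over these 15 arrays gave p = 0.0308, two-sided, where 0.0022 is the smallest p it can give. KO 1 to 10, whose mean equals that of KO 11 to 13, ranged from 3.08 to 5.06 with a median of 3.89. Of these arrays, 2 lay below every WT array. Gjd2 was a dim cluster, below the median cluster of the array in mean level, and it had the widest spread between WT arrays of the 8 genes. The mean level of 10 neuronal markers, from 7.499 to 9.052 in WT and from 7.99 to 8.33 in KO 11 to 13, moved with it, and its part in the difference was not tested. The mammillary markers were lower for 9 of 11 genes (median -0.33). At an unadjusted p of 0.05 in limma 5 were lower, beside 4.15% of all clusters, and 0 passed the adjusted threshold. The mean level of this list was 6.75 to 7.20 in WT and 6.51 to 6.62 in KO 11 to 13, without overlap, which was the largest shift of the 11 marker lists (-0.47). The list holds genes that the study drew from these arrays, among them all 5 that passed with genotype alone (16.7% of all clusters). Its part in the lower Gjd2 was not tested.

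Gja5, the arterial connexin 40, showed the clearest separation. WT values were 5.30 (lowest), 6.18 (median) and 6.59 (highest), with a mean of 6.08 ± 0.41 (SD, n = 12). KO 11, 12 and 13 gave 7.10, 6.78 and 6.87. All 3 mutants were above the highest WT array, and among KO 1 to 10 the same held for 8 of 10. This last count is not separate evidence, since the mean of KO 1 to 10 equals that of KO 11 to 13. The level was 1.78-fold higher, with a 95% interval of 1.24 to 2.55 (limma unadjusted p = 0.00301, adjusted p = 0.238, exact permutation p = 0.0044, two-sided). KO 1 to 10 reached from 5.94 to 7.52 and thus overlapped WT at the low end.

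Gja4, the other arterial connexin, had WT values of 5.16 (lowest), 6.16 (median) and 6.62 (highest), with a mean of 6.12 ± 0.39 (SD, n = 12). KO 11, 12 and 13 gave 6.68, 6.24 and 6.73. KO 11 and KO 13 were above every WT array and KO 12 was in the middle of them. The difference was 0.43 ± 0.21, or 1.35-fold, with a 95% interval that just left out 0 (limma unadjusted p = 0.0479, adjusted p = 0.475, exact permutation p = 0.0945, two-sided). Its direction was that of Gja5, and it did not pass the exact test.

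The third gene linked to vessel walls, Gjc1, was level. It ranged from 7.73 to 7.99 in WT, with a mean of 7.85 ± 0.08 (SD, n = 12), and KO 11, 12 and 13 gave 7.77, 8.05 and 7.79. Only KO 12 lay outside the WT range. The difference was 0.02 ± 0.07 and its 95% interval, -0.11 to 0.15, overlaps that of Gja4 (0.00 to 0.86). Markers of muscle, heart and mural cells stood higher for 10 of 11 genes (median 0.17, largest for the smooth muscle actin Acta2 at 0.61 ± 0.36), with 0 past the adjusted threshold and 1 past an unadjusted p of 0.05, beside 6.2% of all clusters.

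Gja1, the broadly used connexin 43, was the brightest member. WT arrays ranged from 9.004 to 9.454, with a mean of 9.19 ± 0.15 (SD, n = 12), and KO 11, 12 and 13 gave 9.12, 9.13 and 9.13. The groups overlapped, and the difference of -0.06 ± 0.10 had a 95% interval of -0.25 to 0.14. Of 10 progenitor markers 1 was higher and 9 were lower (median -0.12), with a mean level of 9.49 to 10.09 in WT and 9.51 to 9.71 in KO 11 to 13. That level had r = -0.61 with Gja1 over 25 arrays, set means removed, and -0.64 without WT 11. With the arterial and epithelial lists Gja1 had r = 0.53 each. The dim Gja3, the lens connexin, ranged from 4.03 to 4.44 in WT and had 4.36, 4.08 and 4.42 in KO 11, 12 and 13, a difference of 0.08 ± 0.09. Of 9 lens markers, only Foxe3 was above the median cluster, and the lens list differed by a median of 0.05.

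The epithelial pair was dim as well. Gjb6 ranged from 2.79 to 3.18 in WT and had 2.95, 2.95 and 2.89 in KO 11, 12 and 13, a difference of -0.04 ± 0.07. Gjb2 ranged from 3.22 to 4.63 in WT and had 3.57, 3.52 and 3.28 in KO 11, 12 and 13. Its difference was -0.24 ± 0.18 (95% interval -0.61 to 0.13). A second, dimmer cluster of Gjb2 gave 0.11 ± 0.12, so the clusters of this gene disagreed in sign and neither passed the test. The epithelial markers, by contrast, stood higher in the mutant for 13 of 14 genes (median 0.24), with a mean level from 4.94 to 5.53 in WT and from 5.30 to 5.75 in KO 11 to 13. Of these genes 0 passed the adjusted threshold and 2 an unadjusted p of 0.05, beside 6.2% of all clusters.

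**Figure D2:**
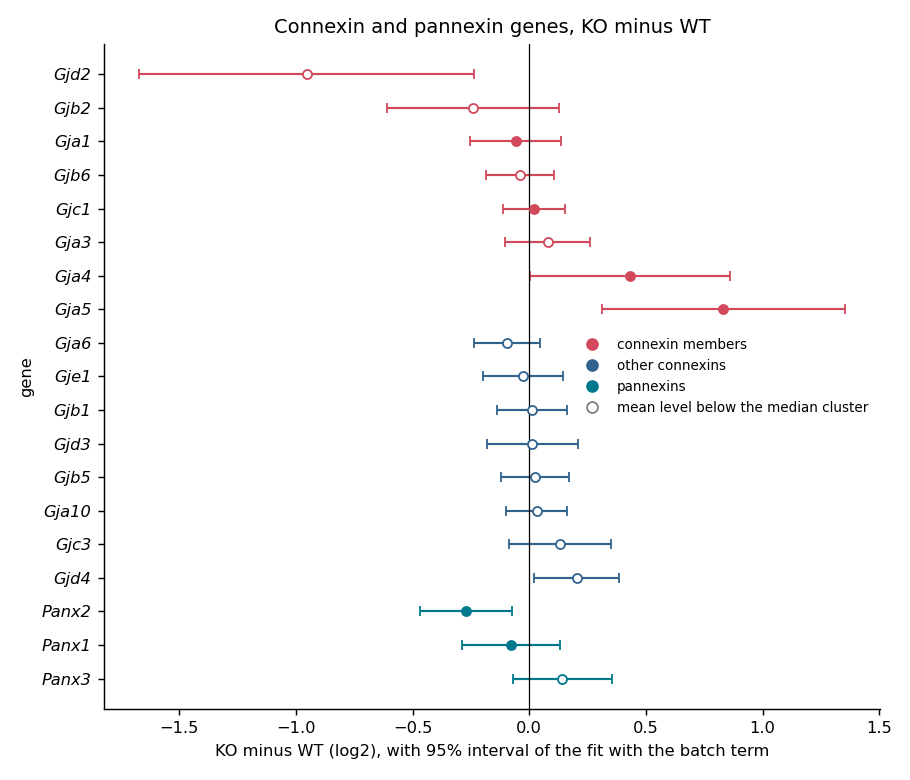
KO minus WT on the log2 scale for the 8 connexin genes described, 8 other connexins and 3 pannexins, with the 95% interval of the limma fit with the term for KO 1 to 10. Open symbols are genes with a mean level below the median cluster. Gja5 and Gjd2 lie farthest from 0, on opposite sides.

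Setting Gjd2 against the other members within each array removes whatever an array's overall brightness adds to both. The difference between Gjd2 and Gja5 on the log2 scale ranged from -2.07 to 0.10 in WT and from -3.34 to -2.78 in KO 11 to 13. The groups did not overlap, and 9 of 10 of KO 1 to 10 were below every WT array. Gjd2 minus Gja4 ranged from -2.16 to 0.05 in WT and from -3.20 to -2.35 in KO 11 to 13, again without overlap, and 7 of 10 of KO 1 to 10 were below WT. The counts for KO 1 to 10 are not separate evidence, since the mean of these arrays equals that of KO 11 to 13. Between the means of KO 11 to 13 and WT, Gjd2 minus Gja5 shifted by -1.79 and Gjd2 minus Gja4 by -1.39. Against Gjc1, Gja1, Gja3, Gjb6 and Gjb2 the shift ran from -1.03 to -0.71 and the groups overlapped in each case, but for Gja3 and Gjb6 the overlap came from WT 11 alone, and without that array 0 WT arrays overlapped. These shifts show unequal change between genes on the same arrays, and no test was made of them, since the genes were chosen with results known. The pairs with Gja5 and Gja4 set the most lowered member against the most raised ones. No share of other gene pairs that separate, with or without WT 11, is given. The level of one cluster cannot be read against that of another, and only the shift between groups is of use here.

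**Figure D3:**
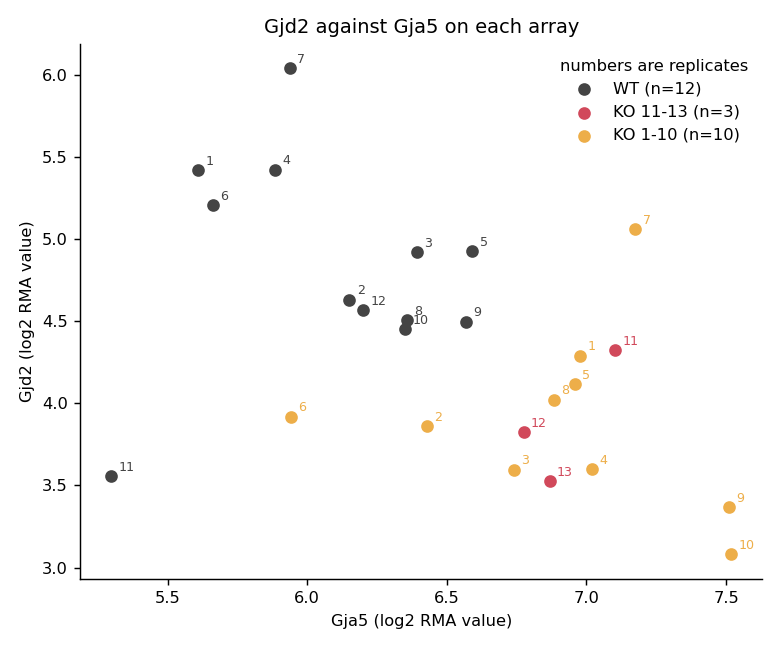
Gjd2 against Gja5 on each of the 25 arrays, both as log2 RMA values, with the replicate number beside each point and the colour giving the set. The 3 arrays KO 11 to 13 lie to the right of every WT array and low for Gjd2, and WT 11 is low for both genes.

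Across arrays the arterial pair moved together and the neuronal gene did not move with it. After the mean of each set was subtracted, Gja5 and Gja4 had r = 0.78 over 25 arrays, 0.73 without WT 11, 0.72 over the 12 WT arrays and 0.93 over KO 1 to 10. Gjd2 and Gja5 had r = -0.07 over 25 arrays and -0.35 without WT 11. Gjd2 and Gja1 had r = -0.48, and -0.73 without WT 11. These are descriptions, since all points share the array and its normalization.

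Markers of several non-neural cell classes stood higher beside the arterial connexins. All 12 mesenchyme markers were higher (median 0.16), and their mean level had r = 0.56 with Gja5 and 0.41 with Gja4 over 25 arrays, set means removed, and 0.45 and 0.16 without WT 11. All 14 endothelial markers were higher in the mutant (median difference 0.12), among them Cdh5, the cadherin of endothelial junctions, with 0.29 ± 0.14, and Flt1, a VEGF receptor, with 0.32 ± 0.17. All 12 arterial markers were higher too (median 0.18), with Epas1, a hypoxia-inducible factor of endothelium, at 0.48 ± 0.18 and Dll4, the arterial Notch ligand, at 0.33 ± 0.11. With the term for KO 1 to 10 none of either list passed the adjusted threshold, while at an unadjusted p of 0.05 there were 3 arterial genes and 0 endothelial ones, and with genotype alone 5 and 3 passed the adjusted threshold. Over all clusters, 6.2% were higher at that unadjusted p and 16.7% passed with genotype alone, a fit that counts KO 1 to 10 as independent arrays. The mean level of the arterial list was 6.16 to 6.67 in WT and 6.63 to 6.72 in KO 11 to 13, so that the groups met at one edge, and that of the endothelial list was 6.47 to 7.31 and 7.16 to 7.48. Without WT 11 the lowest WT levels were 6.38 and 7.11. With set means removed, the arterial list had r = 0.84 with Gja5 and 0.89 with Gja4 over 25 arrays, and 0.82 with each of them without WT 11. The progenitor list went the other way, with r = -0.65 for Gja5 and -0.38 for Gja4, and -0.73 and -0.51 without WT 11. Of the arterial genes Sox17 is also in the endothelial list.

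In fits with a marker level as a covariate, chosen after the data were seen, the estimates shifted. With the arterial list Gja5 differed by 0.16 ± 0.17 and Gja4 by -0.15 ± 0.12, whereas with the endothelial list they differed by 0.63 ± 0.20 and 0.26 ± 0.16. Without WT 11 these were 0.10 ± 0.17 and -0.12 ± 0.13, and 0.61 ± 0.20 and 0.27 ± 0.16. With the other lists that were fitted Gja5 differed by 0.56 to 0.99 and Gja4 by 0.30 to 0.49. The blood, macrophage and lens lists were not fitted as covariates. For Gjd2, all 10 neuronal markers measured were lower in the mutant (median -0.18), among them Stmn2, a microtubule regulator of young neurons, at -0.15 ± 0.29 and Syt1, the calcium sensor of synaptic vesicles, at -0.43 ± 0.31. Neither passed the test, and the neuronal lists of KO 11 to 13 lay inside the WT range. The neuronal list had r = 0.70 with Gjd2 over 25 arrays and 0.61 without WT 11. With it as a covariate Gjd2 differed by -0.75 ± 0.26 (limma unadjusted p = 0.00767, adjusted p = 0.308). With other lists it was -0.64 ± 0.31 (progenitors, p = 0.051), -0.68 ± 0.34 (epithelium, p = 0.0544) and -0.41 ± 0.45 (mammillary, p = 0.372), and these 3 fits did not pass an unadjusted p of 0.05 in limma. The mammillary list holds genes that the study drew from these arrays. Its level did not overlap between KO 11 to 13 and WT, so that fit can hardly separate the list from genotype. The fits with the endothelial, mural and mesenchyme lists passed an unadjusted p of 0.05, with -1.06 ± 0.35, -1.14 ± 0.36 and -1.11 ± 0.33. So did the fit with the arterial list (limma p = 0.0295). The progenitor list had r = 0.56 with Gjd2, and 0.62 without WT 11. Without WT 11 the fits with the neuronal, progenitor, epithelial and mammillary lists gave -0.83 ± 0.26, -0.76 ± 0.26, -0.82 ± 0.31 and -0.44 ± 0.37, and the fit with the arterial list went from -0.97 ± 0.42 to -0.59 ± 0.35. Without that array the neuronal, progenitor and epithelial fits passed an unadjusted p of 0.05 (limma p = 0.00392, 0.00808 and 0.0129). The mammillary and arterial fits did not (p = 0.253 and 0.103), so the sorting of lists depended on WT 11. The covariates differ between the groups themselves, and the part of the vascular and mesenchyme markers in the higher Gja5 and Gja4 was not tested.

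**Figure D4:**
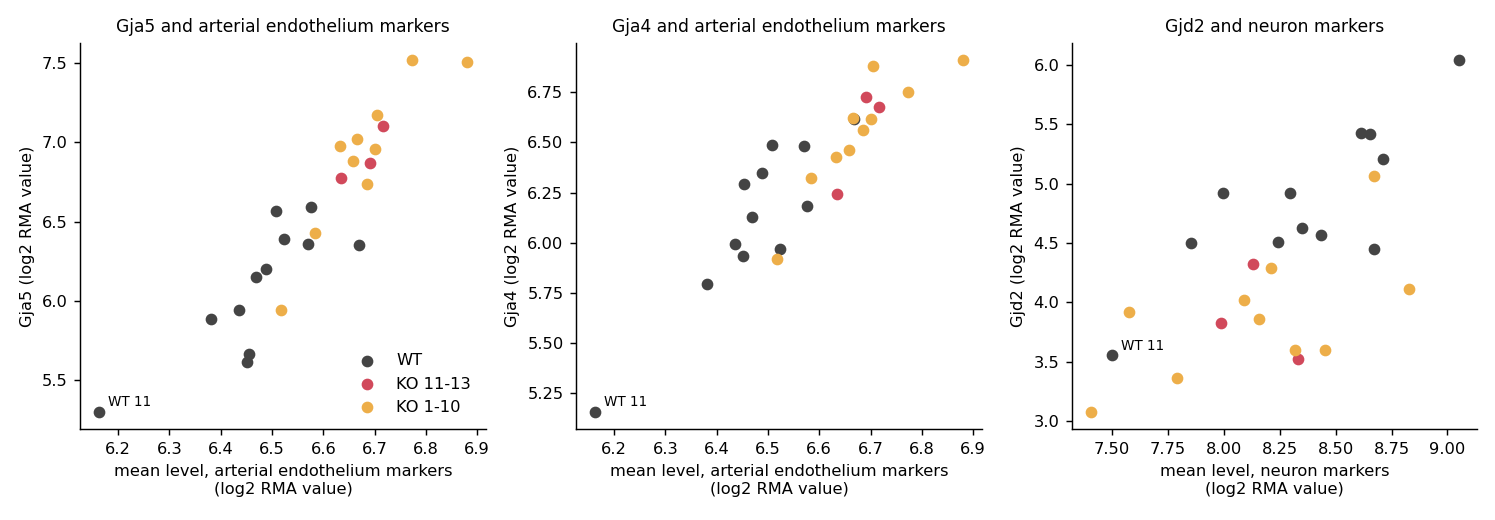
Gja5 and Gja4 against the mean level of 12 arterial endothelium markers, and Gjd2 against that of 10 neuron markers, on each of the 25 arrays (log2 RMA values, colour by set). The arterial connexins climb with the arterial markers over the arrays, and WT 11 is the lowest array for that list.

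The genes whose pattern was most like that of Gjd2 were sought among 10671 named genes above the median level. Over 25 arrays with set means removed these were Gdap1 (r = 0.92), Clcn4 (0.89), Slc29a3 (0.89), Nedd4l (0.89) and Trim46 (0.89). Over the 12 WT arrays alone they were Zfp579, Cpeb2, Epb41l1, Skil and Islr2, with r from 0.93 to 0.95, so the choice of arrays decided which genes led. For Gja5 the same measure gave Cxcl12, a chemokine, at 0.90, Thbd, the thrombin receptor thrombomodulin, at 0.89, Tnc, a matrix protein, at 0.87, Calcrl, a receptor of adrenomedullin, at 0.85 and Lifr, a cytokine receptor, at 0.83. Over the WT arrays these were Slc38a4, Plxnd1, Flt1, Add3 and Gfpt2, with r from 0.91 to 0.93.

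The 8 other connexins analysed were all dimmer than the median cluster, and their median difference was 0.02. Gjd4, a connexin of developing muscle, was higher by 0.20 ± 0.09 from a WT mean of 2.79, and passed with genotype alone. Pannexins form channels of their own in the membrane, without docking. Panx2, the pannexin of the nervous system, was lower by 0.27 on the log2 scale, with an SE of 0.10, and 2 of the mutants KO 11 to 13 were below every WT array (limma unadjusted p = 0.00864, adjusted p = 0.292). Panx1 and Panx3 differed by -0.08 and 0.14. Of 18 proteins that anchor or regulate gap junctions 16 were measured, 8 higher and 8 lower, with a median difference of -0.02. Vcl (vinculin, 0.23 ± 0.12) and Cav1 (caveolin, 0.26 ± 0.11) passed with genotype alone. With genotype alone 16.7% of all clusters passed. With the term for KO 1 to 10 none of these 27 genes passed the adjusted threshold. At an unadjusted p of 0.05, 2 were higher and 1 was lower, beside 6.2% and 4.15% of all clusters.

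Each array was left out in turn. Leaving out any of KO 1 to 10 cannot move the estimate, which leaves 15 arrays that can, and in these fits the sign of Gjd2, Gja5 and Gja4 did not change. Gja5 ranged from 0.74 to 0.90 and passed an unadjusted p of 0.05 in limma in 15 of 15. Gjd2 ranged from -1.17, without KO 11, to -0.77, without KO 13, and passed in 14 of 15, the exception being the fit without KO 13 (p = 0.0748). Gja4 passed in 6 of 15 and ranged from 0.34 without KO 13 (p = 0.18) to 0.59 without KO 12 (p = 0.0245).

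**Figure D5:**
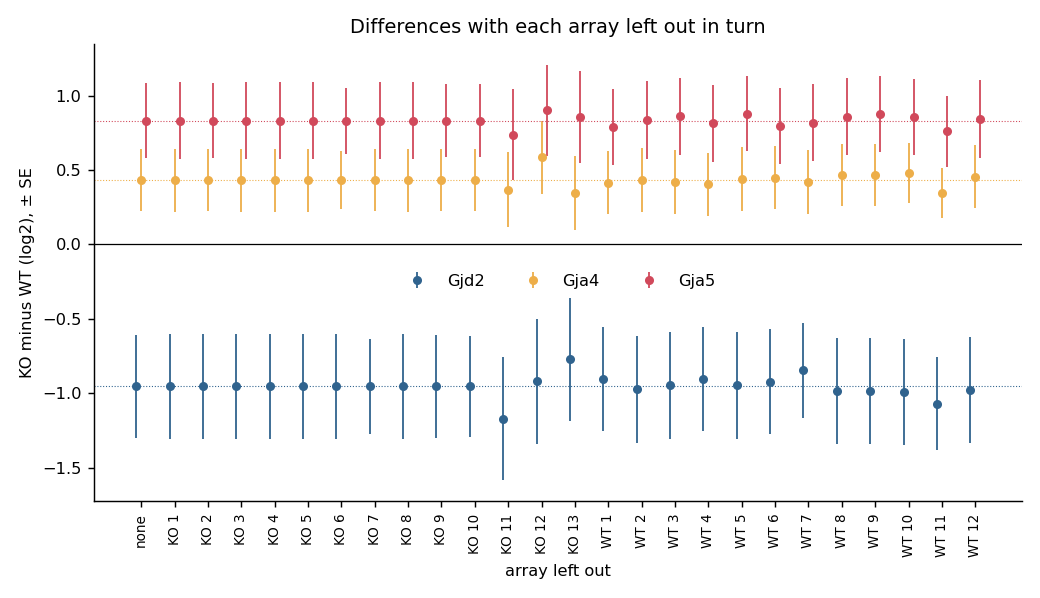
KO minus WT with its SE (log2, term for KO 1 to 10) for Gjd2, Gja4 and Gja5 with each of the 25 arrays left out in turn, beside the fit on all arrays. The lowest and highest estimate of each gene come from leaving out KO 11, 12 or 13, and no estimate crosses 0. Leaving out KO 1 to 10 changes the SE only.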

How the data were processed

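The authors deposited log2 expression values that had been computed with the robust multiarray average (RMA) from Affymetrix Mouse Gene 1.1 ST arrays, and their processing notes name Affymetrix Expression Console 1.0, affy and R 2.7.0. Quantile steps of RMA make array levels alike, so differences are relative to the other genes. The genome build of the probes is not given in the sources used here. Of 35556 probe sets, 6616 without annotation were left out, and 14 cells above 14, misprinted and in none of the connexin clusters, were set missing.

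Each of the 28940 remaining clusters entered a linear model (limma 3.58.1 under R 4.3.3) of genotype and a term for KO replicates 1 to 10, and p-values were adjusted over all of them (Benjamini-Hochberg, two-sided, threshold 0.05). A gene was represented by its brightest cluster with a single symbol. Single genes were also compared between KO 11 to 13 and WT by an exact permutation test. The number of arrays limits the precision. The labels name the samples biological replicates. The fits were tested on simulated data. Plots used Python 3.11.15 and matplotlib 3.10.9.

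The connexin genes, marker lists and tests were chosen with earlier results of these data known. Named beside the 8 connexins are Lhx5, the other gap junction genes called with genotype alone, the 5 genes most like Gjd2 and Gja5 by Pearson's r, and up to 3 bright and 2 most different genes of a marker list. Panx1, Panx3 and Sox17 were added after their values were seen. The lists covered neurons, progenitors, mammillary cells, endothelium, arteries, mural cells, blood, epithelium, mesenchyme, macrophages and lens.

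Settings tried were genotype alone, KO 11 to 13 and WT alone, replicate blocks, repeated quantile normalization, centring, dim clusters left out, array weights, limma-trend, robust moderation, embryo sex, other clusters, a threshold of 0.1 and each array left out. Marker covariates were added after the data were seen. Replicate numbers were not taken as pairs, since correlations of same-numbered arrays ran from -0.33 to 0.43 and 4 of 12 were above 0.1.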

Additional observations from a re-analysis of the deposited data

How the results depend on the processing

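The estimate is fixed by construction in 15 of 35 planned settings for Gjd2 and in 16 of 36 for Gja5 and Gja4. Among the 20 settings that can move it, the sign was kept in 19 for Gjd2, 20 for Gja5 and 20 for Gja4. Their adjusted p fell below 0.05 in 2 settings only. With genotype as the only term Gjd2 differed by -0.95, Gja5 by 0.83 and Gja4 by 0.43 (limma adjusted p = 0.00327, 0.000868 and 0.0202), so 3 connexins and 4 of the other gap junction genes were called, beside 16.7% of all clusters. That fit counts KO 1 to 10 as independent arrays, although their mean equals that of KO 11 to 13.

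The replicate number as a block with genotype alone gave -0.92 for Gjd2, 0.84 for Gja5 and 0.42 for Gja4. In that fit 3 connexins and 4 of the other gap junction genes were called. The share of all clusters called in it is not given, so these counts cannot be judged. The replicate block beside the term for KO 1 to 10 gave 0.011 for Gjd2, 0.073 for Gja1 and -0.000545 for Gja3, each of the opposite sign. By construction that fit compares only KO 11 and KO 12 with WT 11 and WT 12, and WT 11 is the lowest WT array for Gjd2. Same-numbered arrays were not shown to be pairs, and 0 mutant arrays correlated best with their own number.

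When the dim clusters, those under the median level, were dropped, 1 connexin instead of 3 had an unadjusted p below 0.05, since Gjd2 was left out and Gja4 missed the threshold. The second cluster of Gjb2 gave 0.11 instead of -0.24. Gja4 differed by -0.15 with the arterial markers as a covariate, and the cause was not tested. Leaving out single arrays, Gjc1 ranged from -0.073 without KO 12 to 0.070 without KO 11. The number of connexins with an unadjusted p below 0.05 then ranged from 1, without KO 13, to 3. For these counts, and for the one without dim clusters, no share of all clusters is given, so they cannot be judged. The 4 dim genes Gjd2, Gja3, Gjb2 and Gjb6 lie below the median level of the array, where RMA is known to compress differences.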

Other observations

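Gjd2 and Gjb2 varied together, with r = 0.58 over 25 arrays after set means were removed, 0.64 without WT 11 and 0.60 over the 12 WT arrays. Both clusters were dim. Gjd2 also followed the mean level of 10 macrophage markers (r = 0.68 over 25 arrays, 0.56 without WT 11), a list that lay between 4.38 and 5.38 in WT and between 4.86 and 5.31 in KO 11 to 13. Erythroid markers, of which 7 were measured, were all higher in the mutant, by a median of 0.28, and 0 of them passed an unadjusted p of 0.05.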
